A study of Homo sapiens with 24 samples.

Results

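The genes described here are 10 heat shock genes that code for molecular chaperones: HSPA1A, HSPA1B, HSPA8, HSPH1, DNAJB1, HSPB1, HSP90AA1, HSP90AB1, HSPD1 and HSPE1. They were taken by symbol from the 19702 Ensembl genes of the count table, each matched to 1 gene identifier, and followed across all 8 groups of the study. All 10 were kept by the filter on low counts in both cell lines, and the lowest count of a member in any library was 121 reads. The proteins of 8 of them work mainly in the cytosol and nucleus, whereas HSPD1 (HSP60) and HSPE1 (HSP10) together form the chaperonin of the mitochondrial matrix and are not cytosolic.

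The cells were PC9 and H1975, established lung adenocarcinoma lines whose growth depends on activating mutations of the EGFR receptor. Each line was left as control or treated for 24 h with almonertinib (an EGFR tyrosine kinase inhibitor), with paclitaxel (a microtubule-stabilising drug) or with both, and each of these 8 groups had 3 libraries of messenger RNA. PC9 received almonertinib at 2 nM or paclitaxel at 0.3 nM and H1975 received almonertinib at 1 nM or paclitaxel at 1 nM, so that cell line and dose cannot be told apart; the doses within the combination are not separately stated, and the vehicle of the controls is not given in the sources used here. The labels do not tell whether replicate libraries were grown as different cultures. The p-values therefore rest on library-to-library spread that could be purely technical.

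Heat shock proteins bind unfolded or partly folded proteins. HSP70 proteins (HSPA1A, HSPA1B, HSPA8) cycle on and off their clients with ATP; J-domain proteins such as DNAJB1 deliver the clients and stimulate ATP hydrolysis, and the HSP110 protein HSPH1 exchanges the nucleotide. Clients then fold or pass to HSP90 (HSP90AA1, HSP90AB1), which holds many kinases, including mutant EGFR, in an active or activatable state. The small heat shock protein HSPB1 (HSP27) keeps unfolding proteins from aggregating without using ATP. The factor HSF1 drives the inducible members after stress, through promoter elements built of inverted repeats of GAA spaced by a pair of bases, while HSPA8 and HSP90AB1 are strongly expressed in unstressed cells too.

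Library totals ran from 14232299 to 24245314 counts. One library of each line lay farthest from the mean of its group, almonertinib library 3 in PC9 (root mean square deviation of 0.315 on the log2 scale over all genes) and almonertinib library 1 in H1975 (0.507), and results that move without them are given below. Libraries also differed in a trend with transcript length, given as the rank correlation of a library's deviation with exon length. It lay between 0.216 and 0.255 in the PC9 paclitaxel libraries and between -0.21 and -0.128 in the PC9 controls. It was 0.055, 0.222 and -0.066 in the PC9 combination libraries, also above every PC9 control. In PC9 the trend therefore goes together with the comparisons of paclitaxel and of the combination with control. The correlation was 0.134 and 0.054 in PC9 almonertinib libraries 1 and 2 and -0.326 in library 3. Among the H1975 libraries it ranged from -0.394 to 0.339. Of 6 epithelial markers, KRT7, KRT8, KRT18 and KRT19 were abundant in every library, and the summed level of the list was 15230 to 17470 CPM (read counts scaled to a common library size) in PC9 paclitaxel libraries against 21910 to 24890 in PC9 controls. EPCAM and CDH1 were between 85.6 and 261 CPM, so that the sum mostly reflects the keratins. Under paclitaxel in PC9 1 of the 6 markers was called higher and 3 lower with edgeR, beside 27% and 28% of all genes. Among 8 markers of other cell types COL1A2 was at 0, PTPRC and CD3E had at most 1 read in a library, and the sum was at most 31.5 CPM. That sum was 29.96 to 31.5 CPM in the PC9 combination and 16.9 to 22.4 CPM in PC9 controls, with COL1A1 the highest of the list in PC9. It was also above the controls in PC9 almonertinib libraries (23.1 to 28.9 CPM) and in all 3 H1975 treatments (lowest 16.95 CPM against at most 16.6 CPM in controls). The epithelial sum was also lower in H1975 paclitaxel libraries (9558 to 10090 CPM) than in H1975 controls (10910 to 13890 CPM). With edgeR 0 of the 6 epithelial markers were called in that comparison, beside 0.437% of all genes higher and 0.186% lower. The part of these markers in the results was not tested. In these bulk samples fewer cells of a kind and less RNA per cell cannot be told apart.

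Levels in CPM are TMM-scaled within each line separately, so that levels of PC9 and H1975 are set side by side without a test. To set genes beside each other, CPM was divided by the merged exon length in kilobases. In PC9 controls the order of the members per kilobase was HSPB1 (1081 ± 48.4, SD, n = 3), HSP90AB1 (449 ± 52.0), HSPA8 (204.5 ± 18.6), HSPA1A (91.1 ± 10.03), DNAJB1 (66.9 ± 2.21), HSPA1B (58.5 ± 3.67), HSP90AA1 (52.7 ± 15.2), HSPD1 (37.9 ± 8.20), HSPE1 (4.94 ± 0.858) and HSPH1 (4.71 ± 0.965). The libraries of HSPA1B, HSP90AA1 and HSPD1 overlapped with their neighbours in this order, as did those of HSPE1 and HSPH1, and the other neighbours were separate. In H1975 controls HSPB1 (2412 ± 360), HSP90AB1 (437 ± 36.7) and HSPA8 (231 ± 2.27) led again. There HSP90AA1 (121 ± 20.5) and HSPD1 (91.4 ± 13.1) came next and overlapped, followed by DNAJB1 (50.3 ± 3.70), HSPA1A (37.3 ± 7.41) and HSPA1B (19.7 ± 2.61), with HSPE1 (7.28 ± 0.401) and HSPH1 (6.69 ± 0.601) lowest and overlapping. HSPA1A thus stood above HSP90AA1 and HSPD1 in PC9 controls and below both in H1975 controls, as a description with no test.

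**Figure D1:**
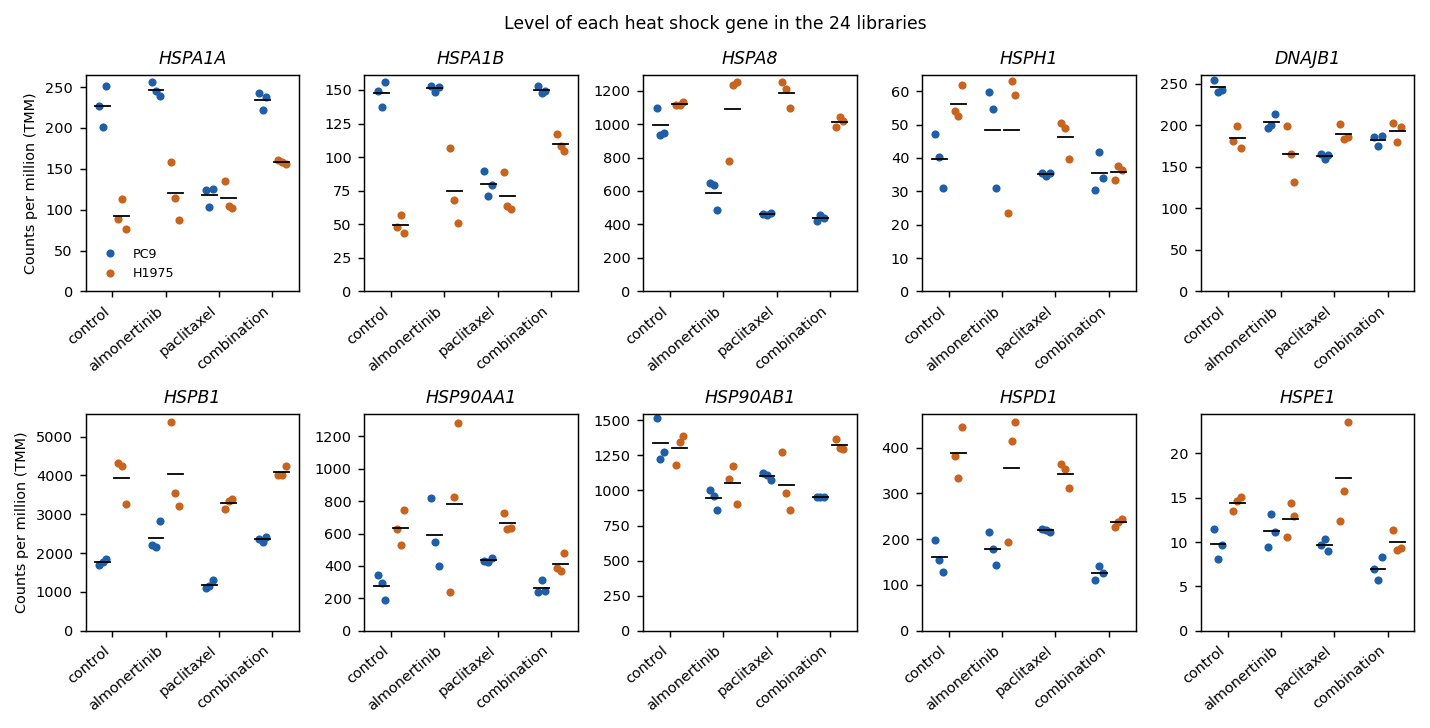
Level of each of the 10 members (CPM, TMM-scaled within a line, linear axis from 0) in the 4 treatments of PC9 (blue) and H1975 (orange); each point is 1 library and each bar the mean of 3. HSPA8 lay below the controls in all 9 treated PC9 libraries, whereas HSP90AA1 in H1975 almonertinib libraries spread from 241 to 1285.

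The levels of some members rest on how reads were shared between genes, which is not given in the sources used here. HSPA1A (chr6:31815464-31817946, plus strand, GRCh38, single exon in the annotation used) and HSPA1B (chr6:31827735-31830255, plus strand) are near-identical copies: 69.9% of the 100-base stretches of the HSPA1A transcript also occurred in that of HSPA1B. HSPE1 (chr2:197499994-197503457, plus strand) lies wholly inside the span of HSPD1 (chr2:197486581-197516737, minus strand), and 14.2% of its exonic bases are also exonic in HSPD1. A further 9.71% are shared with the read-through gene HSPE1-MOB4, which had 0 counts in every library. DNAJB1 shares 5.75% of its exonic bases with TECR on the other strand, and HSP90AA1 shares 3.75% with WDR20. HSPA1B shares 36.5% with AL671762.1, a gene on the same strand that is absent from the count table, so its reads cannot be examined.

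Promoter stretches are shown for the members with an HSF1 element in a window of the 250 bases before a RefSeq start site (GRCh38.p14). Bases after the start site were not searched. This element is shown because it is what the inducible members are known to share and the members with it did not all move alike. The element was searched on both strands as GAANNTTC or TTCNNGAA (a pair of units, which overlap in longer runs) and as GAANNTTCNNGAA or TTCNNGAANNTTC (3 units). All 10 members matched the table, with 16 windows in all. A pair of units occurred in 8 of the 16 windows, covering 8 members, and in 11.6% of all 35116 windows; 3 units occurred in 4 of the 16, covering HSPA8, HSP90AA1, HSP90AB1 and HSPD1, and in 0.441% of all. HSPH1 and HSPE1 had no match in these windows. A match describes letters and is not a measured binding site. HSPA8 and HSP90AB1 also held a second run of 3 units farther from the start site, not shown. Capitals mark the matched letters; the stretches of HSPA8, HSP90AA1 and HSPD1 are limited to 30 bases because another annotated transcript has an exon there.
HSPA1A (chr6:31815413-31815463, plus strand): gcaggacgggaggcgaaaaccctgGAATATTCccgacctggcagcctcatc
HSPA1B (chr6:31827609-31827664, plus strand): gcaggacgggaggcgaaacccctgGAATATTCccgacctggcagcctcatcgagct
HSPA8 (chr11:123062170-123062199, minus strand): cgggccccTTCTGGAAGGTTCtaagatagg
DNAJB1 (chr19:14518421-14518475, minus strand): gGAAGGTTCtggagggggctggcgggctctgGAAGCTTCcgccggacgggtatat
HSPB1 (chr7:76302467-76302522, plus strand): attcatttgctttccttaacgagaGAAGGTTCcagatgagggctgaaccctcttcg
HSP90AA1 (chr14:102087111-102087140, minus strand): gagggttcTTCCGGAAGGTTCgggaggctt
HSP90AB1 (chr6:44247807-44247865, plus strand): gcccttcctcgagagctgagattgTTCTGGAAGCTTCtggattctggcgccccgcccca
HSPD1 (chr2:197500059-197500088, minus strand): attTTCTGGAAAGTTCTGGAAccgagcgag

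The inducible HSP70 genes HSPA1A and HSPA1B fell in PC9 under paclitaxel alone and stood near the control when almonertinib was present. HSPA1A was at 226, 201 and 251 CPM in PC9 controls and at 124, 103 and 125 CPM under paclitaxel. It was at 256, 245 and 239 CPM under almonertinib and at 243, 222 and 237 CPM in the combination. All 3 paclitaxel libraries lay below every other PC9 library, and the other groups overlapped. HSPA1B followed the same order, with 149, 138 and 156 CPM in controls and 89.4, 70.8 and 79.4 CPM under paclitaxel. It was at 153, 149 and 152 CPM under almonertinib and at 153, 148 and 149 CPM in the combination. The log2 fold change under paclitaxel was -0.94 ± 0.10 (SE; edgeR adjusted p = 2.18e-06) for HSPA1A and -0.89 ± 0.09 (adjusted p = 1.44e-06) for HSPA1B. Under almonertinib the 95% intervals ran from -0.08 to 0.33 for HSPA1A and from -0.15 to 0.22 for HSPA1B, and in the combination from -0.16 to 0.26 and from -0.16 to 0.21. Because the copies share sequence, their agreement is not an independent repeat.

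In H1975 the same pair was higher in the combination. HSPA1B was at 48.3, 56.8 and 43.8 CPM in controls and at 117, 108 and 104 CPM in the combination, a log2 fold change of 1.15 ± 0.23 (edgeR adjusted p = 0.0176). It was at 107, 67.8 and 50.7 CPM under almonertinib and at 88.7, 63.3 and 61.2 CPM under paclitaxel, groups in which neither fold change passed the test (0.59 ± 0.23, adjusted p = 0.309, and 0.52 ± 0.23, adjusted p = 0.568). All 3 combination libraries and all 3 paclitaxel libraries lay above every control, and the almonertinib libraries overlapped with the controls. HSPA1A was at 89.0, 113 and 76.2 CPM in controls and at 161, 159 and 156 CPM in the combination (0.77 ± 0.21, adjusted p = 0.0647). Its groups did not overlap either, but the change missed the threshold. HSPA1A was at 158, 115 and 87.9 CPM under almonertinib and at 135, 104 and 102 CPM under paclitaxel, which overlapped with the controls. The call for HSPA1B was lost when any of the 3 combination libraries, control library 1 or control library 2 was left out (log2 fold changes of 1.10 to 1.25, adjusted p of 0.052 to 0.117), and HSPA1A was called with DESeq2 (0.79, adjusted p = 0.0102). HSPA1A was also called with no filter, the stricter filter or the length and GC trend removed (edgeR adjusted p = 0.0483, 0.049 and 0.00536). The same held with all 24 libraries in 1 fit and with only the groups compared (adjusted p = 0.00549 and 0.00206).

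HSPA8, the constitutive HSP70 and the highest HSP70 member per kilobase in the controls, fell in PC9 under every treatment. It was at 1096, 935 and 945 CPM in controls, at 648, 633 and 489 CPM under almonertinib, at 462, 457 and 471 CPM under paclitaxel and at 418, 457 and 436 CPM in the combination. All 9 treated libraries lay below all 3 controls, and the paclitaxel and combination libraries also lay below those with almonertinib. The log2 fold changes were -0.75 ± 0.11 (edgeR adjusted p = 2.28e-05), -1.10 ± 0.11 (adjusted p = 1.3e-06) and -1.18 ± 0.11 (adjusted p = 3.14e-07). Per kilobase, HSPA8 in the PC9 combination (90.2 ± 4.07, SD, n = 3) was no longer above HSPA1A (94.3 ± 4.54). In H1975 controls HSPA8 was at 1114, 1112 and 1132 CPM. It was at 781, 1231 and 1254 CPM under almonertinib, at 1250, 1209 and 1093 CPM under paclitaxel and at 984, 1040 and 1019 CPM in the combination. The low value was almonertinib library 1, the library that stood apart. The combination libraries lay below every control, yet no H1975 comparison of HSPA8 passed the test (95% intervals from -0.53 to 0.47 over the 3 treatments).

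Of the HSP70 partners, DNAJB1 fell in PC9 under every treatment, and HSPH1 passed no test in the main fit. DNAJB1 was at 255, 240 and 242 CPM in PC9 controls, at 197, 201 and 214 CPM under almonertinib, at 165, 159 and 165 CPM under paclitaxel and at 186, 175 and 187 CPM in the combination. Every treated library lay below every control, and DNAJB1 fell by 0.27, 0.59 and 0.43 on the log2 scale (SE 0.08 in each; edgeR adjusted p = 0.00631, 1.68e-05 and 0.00022). With the trend in length and GC content removed from each library, the fall under almonertinib was -0.03 and no longer called (adjusted p = 0.688), and the others were -0.41 and -0.31. The almonertinib call was also lost in the fit of all 24 libraries (adjusted p = 0.0842). In H1975 DNAJB1 was at 181, 200 and 173 CPM in controls, at 200, 165 and 132 CPM under almonertinib, at 201, 183 and 185 CPM under paclitaxel and at 203, 179 and 198 CPM in the combination. These groups overlapped, with no change called (log2 fold changes of -0.16, 0.04 and 0.06).

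HSPH1 was at 47.2, 40.4 and 31.1 CPM in PC9 controls and at 59.7, 54.7 and 31.1 CPM under almonertinib. It was at 35.4, 34.5 and 35.4 CPM under paclitaxel and at 30.5, 41.8 and 34.1 CPM in the combination. The low almonertinib value was library 3, and the groups overlapped; no change was called (0.29 ± 0.19, -0.18 ± 0.19 and -0.16 ± 0.19). HSPH1 has the longest merged exons of the members (8390 bases), and its values moved with the handling of length. Without PC9 almonertinib library 3 its change under almonertinib was 0.55 (adjusted p = 0.0042), and with the length and GC trend removed it was -0.18 under almonertinib (adjusted p = 0.146), -0.80 under paclitaxel (adjusted p = 1.34e-05) and -0.44 in the combination (adjusted p = 0.00209). In H1975 it was at 54.1, 52.5 and 61.9 CPM in controls and at 33.3, 37.6 and 36.5 CPM in the combination, with 23.5, 63.0 and 58.9 CPM under almonertinib and 50.6, 48.9 and 39.7 CPM under paclitaxel. The combination and paclitaxel libraries lay below every control. Neither change was called with edgeR in the main fit (-0.65 ± 0.26, adjusted p = 0.2, and -0.28 ± 0.26, adjusted p = 0.959). The combination change was called with the length and GC trend removed (-0.55, adjusted p = 0.0143) and with only the groups compared (-0.65, adjusted p = 0.00305).

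HSPB1, the most abundant member per kilobase in every group, moved in opposite directions under the single drugs in PC9. It was at 1689, 1764 and 1847 CPM in controls, at 2216, 2169 and 2815 CPM under almonertinib and at 1088, 1154 and 1302 CPM under paclitaxel. The combination, at 2365, 2279 and 2415 CPM, resembled almonertinib in level. No treated library overlapped with the controls. HSPB1 rose by 0.44 ± 0.11 under almonertinib (edgeR adjusted p = 0.00339) and by 0.41 ± 0.11 in the combination (adjusted p = 0.00637), and it fell by 0.58 on the log2 scale under paclitaxel (adjusted p = 0.000545). The combination call was lost in the fit of all 24 libraries (0.42, adjusted p = 0.0567). In H1975 it was at 4328, 4231 and 3263 CPM in controls, at 5373, 3540 and 3213 CPM under almonertinib, at 3125, 3338 and 3402 CPM under paclitaxel and at 4019, 4011 and 4231 CPM in the combination. These groups overlapped with the controls and no change was called (0.04 ± 0.20, -0.26 ± 0.20 and 0.05 ± 0.20).

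The HSP90 genes separated in PC9: the inducible HSP90AA1 rose under each single drug and the constitutive HSP90AB1 fell. HSP90AA1 was at 346, 294 and 189 CPM in controls, at 821, 545 and 403 CPM under almonertinib, at 431, 427 and 448 CPM under paclitaxel and at 238, 314 and 242 CPM in the combination. Both single-drug groups lay above every control, while the combination overlapped with the controls. HSP90AA1 rose by 1.09 ± 0.23 under almonertinib (edgeR adjusted p = 0.000727) and by 0.65 ± 0.22 under paclitaxel (adjusted p = 0.0219), and its combination change was -0.06 ± 0.22 (95% interval -0.54 to 0.41). The paclitaxel call was lost without PC9 control library 3 (0.44, adjusted p = 0.0927) and with the length and GC trend removed (0.55, adjusted p = 0.0835). It was also lost with no filter (adjusted p = 0.0883), with only the groups compared (adjusted p = 0.0637) and in the fit of all 24 libraries (adjusted p = 0.108).

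HSP90AB1 was at 1514, 1225 and 1273 CPM in PC9 controls, at 1007, 964 and 860 CPM under almonertinib, at 1125, 1111 and 1072 CPM under paclitaxel and at 957, 956 and 953 CPM in the combination. All 9 treated libraries lay below the controls. HSP90AB1 fell by 0.50, 0.28 and 0.49 on the log2 scale (SE 0.10 in each; edgeR adjusted p = 0.00048, 0.0277 and 0.000809). The paclitaxel call was lost without PC9 control library 1 (-0.18, adjusted p = 0.155) or without any paclitaxel library (adjusted p = 0.076, 0.0857 and 0.115), and with no filter, the stricter filter or the length and GC trend removed (adjusted p = 0.0512, 0.0646 and 0.0884), as well as in the fit of all 24 libraries (adjusted p = 0.15).

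In H1975 the HSP90 genes passed no test in the main fit, and HSP90AA1 had the largest standard error of any member. HSP90AA1 was at 627, 529 and 744 CPM in controls and at 241, 825 and 1285 CPM under almonertinib. It was at 730, 631 and 634 CPM under paclitaxel and at 389, 369 and 480 CPM in the combination, below every control. Its log2 fold changes were 0.31 ± 0.38, 0.07 ± 0.38 and -0.62 ± 0.38. Without almonertinib library 1 HSP90AA1 was at 0.74 under almonertinib (adjusted p = 0.033). With only the groups compared its combination change was called (-0.62, edgeR adjusted p = 0.0124). HSP90AB1 was at 1180, 1344 and 1387 CPM in controls, at 1085, 1175 and 904 CPM under almonertinib, at 1277, 980 and 860 CPM under paclitaxel and at 1369, 1300 and 1296 CPM in the combination. The almonertinib libraries lay below every control and the other groups overlapped, with changes of -0.31, -0.33 and 0.02 that were not called.

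The mitochondrial chaperonin genes HSPD1 and HSPE1 share a divergent start region but differed in level. HSPD1 was at 198, 155 and 129 CPM in PC9 controls, at 216, 178 and 144 CPM under almonertinib, at 222, 219 and 216 CPM under paclitaxel and at 111, 141 and 126 CPM in the combination. The paclitaxel libraries lay above every control and the other groups overlapped with the controls. HSPD1 rose by 0.45 ± 0.15 under paclitaxel (edgeR adjusted p = 0.0174); its combination change was -0.36 ± 0.15 (adjusted p = 0.0542). The paclitaxel call was lost without PC9 control library 2 (0.42, adjusted p = 0.0563), without control library 3 (0.31, adjusted p = 0.102) and with the length and GC trend removed (0.26, adjusted p = 0.0858), and in the fit of all 24 libraries (adjusted p = 0.075).

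HSPE1 was at 11.5, 8.12 and 9.66 CPM in PC9 controls, at 9.45, 13.2 and 11.1 CPM under almonertinib, at 9.64, 10.3 and 8.96 CPM under paclitaxel and at 6.99, 5.68 and 8.29 CPM in the combination. The highest combination library lay just above the lowest control. HSPE1 fell by 0.49 on the log2 scale (SE 0.18, edgeR adjusted p = 0.0284), a call that was lost without combination library 1 (adjusted p = 0.0658), combination library 2 (-0.34, adjusted p = 0.154), control library 1 (-0.35, adjusted p = 0.153) or control library 3 (adjusted p = 0.0521), and with the length and GC trend removed (-0.24, adjusted p = 0.192) or all 24 libraries in 1 fit (adjusted p = 0.0719). In H1975 both genes were lower in all 3 combination libraries than in any control: HSPD1 was at 227, 239 and 244 CPM against 383, 335 and 446 CPM. HSPE1 was at 11.3, 9.13 and 9.37 CPM against 13.5, 14.6 and 15.1 CPM. The log2 fold changes of -0.71 ± 0.24 (adjusted p = 0.135) and -0.53 ± 0.22 (adjusted p = 0.213) were not called in the main fit. With the length and GC trend removed HSPD1 and HSPE1 were called (edgeR adjusted p = 0.00665 and 0.0456). Both were also called with only the groups compared (adjusted p = 0.00271 and 0.0315), and HSPD1 in the fit of all 24 libraries (adjusted p = 0.0338). Under almonertinib HSPD1 was at 195, 415 and 457 CPM and HSPE1 at 10.6, 14.4 and 12.9 CPM. Under paclitaxel they were at 365, 352 and 311 CPM and at 12.4, 15.8 and 23.6 CPM, and all 4 of these groups overlapped with the controls.

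**Figure D2:**
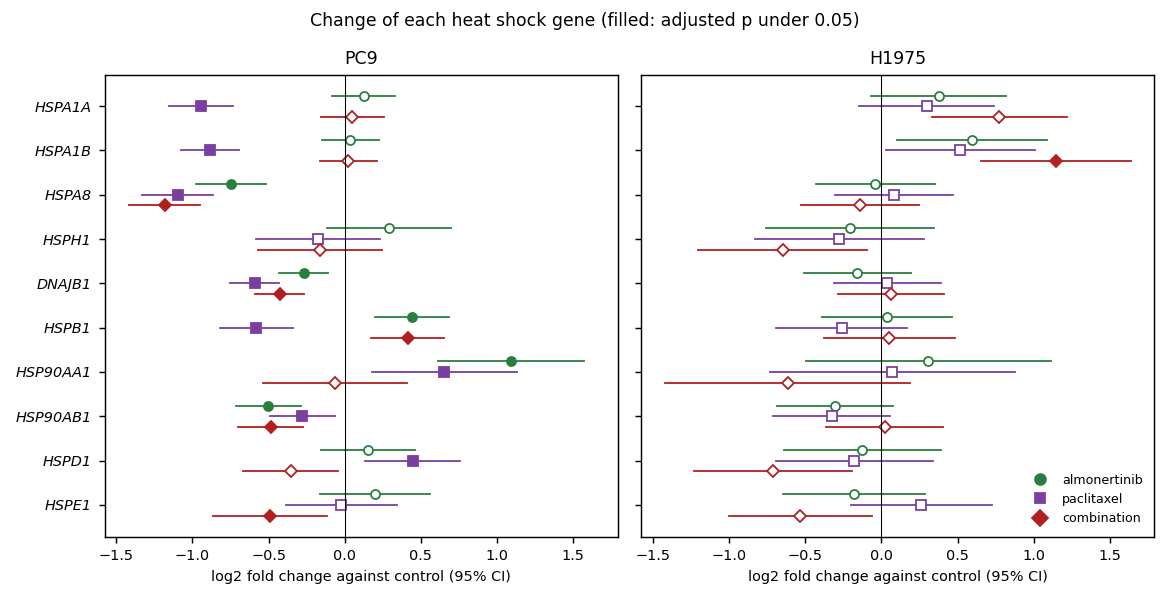
Log2 fold change against the control of the same line, with its 95% confidence interval from the edgeR fit, for each member under almonertinib (circles), paclitaxel (squares) and the combination (diamonds) in PC9 (left) and H1975 (right); filled symbols have an adjusted p under 0.05. In PC9 the changes ran from -1.18 to 1.09, and in H1975 only HSPA1B in the combination (1.15) is filled.

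Counted over the members, the PC9 responses were mixed in direction. Under almonertinib 2 members rose and 3 fell, beside 28.9% of all 12796 genes tested that were higher and 27.7% that were lower. Under paclitaxel 2 rose and 6 fell, beside 27% and 28% of all genes. In the combination 1 rose and 4 fell, beside 24.7% and 26.1%. The median log2 fold change of the members was 0.14, -0.43 and -0.26, and that of all genes 0.03, -0.01 and 0.00. Of all 12796 genes 7243 were called under almonertinib, 7032 under paclitaxel and 6492 in the combination, so that a call is common in PC9. The number of members called under almonertinib and in the combination, 5 of 10 in each, lies near that background. The share of a library's counts held by the 10 members was 0.486% ± 0.0315 (SD, n = 3) in PC9 controls, 0.521% ± 0.0627 under almonertinib, 0.427% ± 0.00357 under paclitaxel and 0.468% ± 0.0114 in the combination.

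Against almonertinib alone, the PC9 combination had 4 lower members and 0 higher, beside 9.72% and 10.3% of all genes. The lower members were HSPA8 (-0.43 ± 0.11, edgeR adjusted p = 0.0106), HSP90AA1 (-1.16 ± 0.23, adjusted p = 0.00225), HSPD1 (-0.51 ± 0.15, adjusted p = 0.0222) and HSPE1 (-0.69 ± 0.17, adjusted p = 0.0102). In the higher direction 0 members had an unadjusted p under 0.05 and DESeq2 also called 0. Without combination library 1 the count was 2, with HSPA8 (adjusted p = 0.0616) and HSPD1 (adjusted p = 0.119) lost. The HSPD1 call was also lost without combination library 3 (adjusted p = 0.0669) or almonertinib library 1 (adjusted p = 0.0998), and the HSPE1 call without combination library 2 (adjusted p = 0.0583) or almonertinib library 2 (adjusted p = 0.0517). Without almonertinib library 3, HSPH1 was also lower (-0.69, adjusted p = 0.0022).

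Against paclitaxel alone, the PC9 combination had 3 higher and 3 lower members, beside 21.7% and 22.4% of all genes. HSPA1A, HSPA1B and HSPB1 were higher by 0.99 ± 0.10, 0.91 ± 0.09 and 0.99 ± 0.12 (edgeR adjusted p = 1.26e-06, 1.03e-06 and 5.13e-06), which is close to 2-fold (1.99, 1.88 and 1.99). HSP90AA1, HSPD1 and HSPE1 were lower, at -0.72 ± 0.22 (adjusted p = 0.0171), -0.80 ± 0.15 (adjusted p = 0.000405) and -0.47 ± 0.17 (adjusted p = 0.037). The HSP90AA1 call was lost without combination library 1 (adjusted p = 0.0615) or library 3 (adjusted p = 0.0595), with no filter (adjusted p = 0.0848), with the length and GC trend removed (-0.55, adjusted p = 0.0969) and in the fit of all 24 libraries (adjusted p = 0.1). The HSPE1 call was lost without combination library 1 or 2 (adjusted p = 0.089 and 0.145) or paclitaxel library 1 or 2 (adjusted p = 0.077 and 0.114), and with RLE factors (adjusted p = 0.0561), DESeq2 (adjusted p = 0.0525) or all 24 libraries in 1 fit (adjusted p = 0.0789). HSPA8 was at -0.08 ± 0.11, with a 95% interval from -0.31 to 0.15.

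The interaction of the drugs asks whether the combination equals the sum of the single-drug changes on the log2 scale. Because the doses within the combination are not separately stated, a departure from the sum cannot be told apart from a different dose. In PC9 it differed for 8 of 10 members: 5 were above the sum and 3 below, beside 22% and 23.4% of all genes. HSP90AA1 was farthest from it, at a sum of 1.75 and a combination of -0.06, an interaction of -1.81 ± 0.32 (edgeR adjusted p = 0.000372). HSPD1 (-0.95 ± 0.21, adjusted p = 0.00156) and HSPE1 (-0.67 ± 0.24, adjusted p = 0.0337) were also below the sum. Above it were HSPA1A (0.87 ± 0.14, adjusted p = 0.000133), HSPA1B (0.87 ± 0.13, adjusted p = 5.13e-05), HSPA8 (0.67 ± 0.15, adjusted p = 0.00231), HSPB1 (0.55 ± 0.16, adjusted p = 0.0104) and DNAJB1 (0.43 ± 0.11, adjusted p = 0.00382). For HSPA8 the combination (-1.18) lay near the change under paclitaxel alone (-1.10) and short of the sum (-1.85). HSPH1 was at -0.27 ± 0.27, not called, and this value turned to 0.54 (adjusted p = 0.00725) with the length and GC trend removed; DNAJB1 was then at 0.13 (adjusted p = 0.197). Without almonertinib library 3, the interaction of HSPH1 was -0.53 (adjusted p = 0.0311). The HSPE1 call was lost without almonertinib library 2, combination library 1 or 2, control library 2 or 3, or paclitaxel library 1 or 2 (adjusted p of 0.0583 to 0.1).

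**Figure D3:**
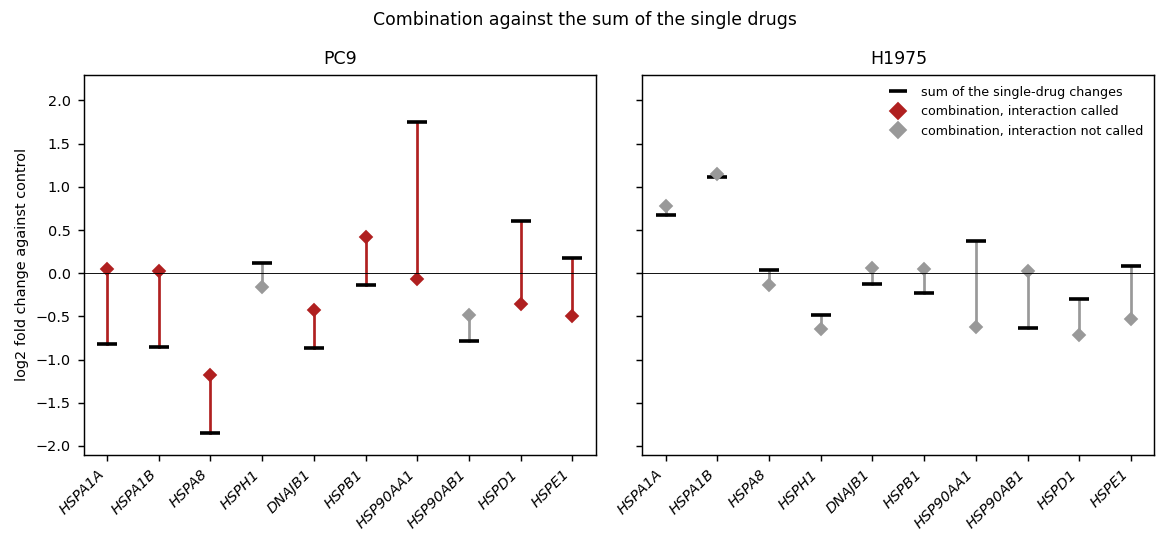
For each member, the sum of the almonertinib and paclitaxel log2 fold changes (black dash) and the change measured in the combination (diamond), in PC9 (left) and H1975 (right), on a log2 axis; red marks an interaction with an edgeR adjusted p under 0.05 and grey one that was not called. The lines joining dash and diamond are longest for HSP90AA1, from 1.75 to -0.06 in PC9.

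In H1975 the members passed few tests. Under almonertinib 0 of 10 were called with edgeR, beside 1.36% of all 12345 genes that were higher and 0.608% that were lower; 1 member had an unadjusted p under 0.05 and DESeq2 called 0. Under paclitaxel 0 were called, beside 0.437% and 0.186%, with 1 member at an unadjusted p under 0.05 and 0 called by DESeq2. In the combination 1 rose (HSPA1B) and 0 fell, beside 1.75% and 0.713%; 5 members had an unadjusted p under 0.05 and DESeq2 called 2. Of all 12345 genes 2293 had an unadjusted p under 0.05 there, and DESeq2 called 699 of 15527. Against almonertinib the combination had 0 members called (0% of all genes in either direction, 3 members at an unadjusted p under 0.05, 0 by DESeq2). Against paclitaxel it also had 0 (0% of all genes in either direction, 4 members at an unadjusted p under 0.05), and DESeq2 called 1, HSPE1 (-0.78, adjusted p = 0.0301). Of all 12345 genes 1698 had an unadjusted p under 0.05 there, and DESeq2 called 488 of 15527. The interaction had 0 called, beside 0.243% and 0.413%, with 1 member at an unadjusted p under 0.05 and 0 by DESeq2. The median log2 fold change of the members was -0.08, 0.05 and -0.06 under the 3 treatments, and that of all genes 0.02, -0.03 and -0.04. The typical coefficient of variation between libraries was 0.191 in H1975 and 0.111 in PC9.

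Almonertinib library 1 bore on these H1975 counts. Left out together with PC9 almonertinib library 3, an alternative chosen after the data were seen, it gave 5 members called in the combination against control, 2 higher and 3 lower. Those were HSPA1A (0.77, edgeR adjusted p = 0.00689), HSPA1B, HSPH1 (-0.65, adjusted p = 0.00505), HSP90AA1 (-0.62, adjusted p = 0.0345) and HSPD1 (-0.71, adjusted p = 0.00451), with nearly the same fold changes as before and smaller errors. The combination against almonertinib then had 5 called, among them HSP90AA1 at -1.35 (adjusted p = 0.00577) and HSPD1 at -0.88 (adjusted p = 0.00577), and the interaction had 1, HSP90AA1 at -1.42 (adjusted p = 0.00786). Calls rose over the whole table too. Of all 12441 genes 1487, 1111 and 629 were called in these comparisons, against 304, 0 and 81 of 12345 in the main fit.

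The responses of the lines were compared directly as PC9 minus H1975, in a fit of all 24 libraries with 13380 genes. For almonertinib 1 member was lower in PC9 and 0 higher, beside 11% and 5.6% of all genes: HSPA8, at -0.72 ± 0.20 (edgeR adjusted p = 0.0168). For paclitaxel 4 were lower and 0 higher, beside 7.19% and 9.96%. These were HSPA1B (-1.39 ± 0.27, adjusted p = 0.00169), HSPA1A (-1.23 ± 0.25, adjusted p = 0.0023), HSPA8 (-1.17 ± 0.20, adjusted p = 0.000731) and DNAJB1 (-0.62 ± 0.18, adjusted p = 0.0226). For the combination 3 were lower and 0 higher, beside 10.9% and 6.98%: HSPA1B (-1.13 ± 0.27, adjusted p = 0.00435), HSPA8 (-1.05 ± 0.20, adjusted p = 0.000869) and HSPA1A (-0.73 ± 0.25, adjusted p = 0.0399). In the higher direction, 0 members were at an unadjusted p under 0.05 for almonertinib and the combination, 1 was for paclitaxel (HSPD1, 0.63, adjusted p = 0.128), and DESeq2 called 1, 4 and 5 members in either direction. All 8 edgeR calls were in HSP70 genes or DNAJB1, and HSPA1A and HSPA1B share sequence. With that pair summed 3 and 2 members were called for paclitaxel and the combination. HSP90AB1 was not called for the combination with edgeR (-0.52, adjusted p = 0.0716), but DESeq2 called it (-0.52, adjusted p = 0.0189). The almonertinib difference of HSPA8 was lost without PC9 control library 1 (-0.62, adjusted p = 0.0627), and that of DNAJB1 for paclitaxel without PC9 control library 1 or 3, PC9 paclitaxel library 2, H1975 control library 3 or H1975 paclitaxel library 3 (adjusted p of 0.0528 to 0.0647). The combination difference of HSPA1A was lost with RLE factors (adjusted p = 0.0503) and without any combination library of either line or control library 1 or 3 of either line (adjusted p of 0.0582 to 0.115).

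Ratios of counts within a library need no scaling between libraries, but they do not remove a library's trend with exon length. The paired genes differ in merged exon length: 5248 bases for HSP90AA1 and 2980 for HSP90AB1, and 4245 for HSPD1 and 1977 for HSPE1. HSPA8 has 4849, against 2483 for HSPA1A and 2521 for HSPA1B. The part of that trend in the ratios was not tested. The ratio of HSPA1A plus HSPA1B to HSPA8 was 0.379 ± 0.0463 (SD, n = 3) in PC9 controls, 0.684 ± 0.0997 under almonertinib, 0.426 ± 0.0415 under paclitaxel and 0.881 ± 0.0702 in the combination. Libraries with almonertinib, alone or combined, all lay above the controls (highest 0.431), and paclitaxel overlapped with them. In H1975 the ratio was 0.127 ± 0.0234, 0.199 ± 0.122, 0.156 ± 0.0207 and 0.265 ± 0.0151 in the same order, and only the combination (lowest 0.255) lay clear of the controls (highest 0.152). The ratio of HSP90AA1 to HSP90AB1 was 0.206 ± 0.0498 in PC9 controls and 0.616 ± 0.179, 0.395 ± 0.0196 and 0.277 ± 0.0446 under almonertinib, paclitaxel and the combination. All PC9 treated libraries lay above the controls (highest 0.240; lowest treated 0.248). In H1975 this ratio was 0.487 ± 0.081 in controls, 0.651 ± 0.0835 under paclitaxel and 0.313 ± 0.0499 in the combination. The paclitaxel libraries (0.571 to 0.738) lay above every control (0.394 to 0.536) and the combination libraries (0.284 to 0.370) below, and the ratio ran from 0.222 to 1.42 among almonertinib libraries. HSPD1 had 16.6 ± 2.91 times the counts of HSPE1 in PC9 controls and 27.0 ± 3.57 times in H1975 controls; its groups overlapped, apart from PC9 paclitaxel (21.2 to 24.1) above PC9 controls (13.4 to 19.1).

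**Figure D4:**
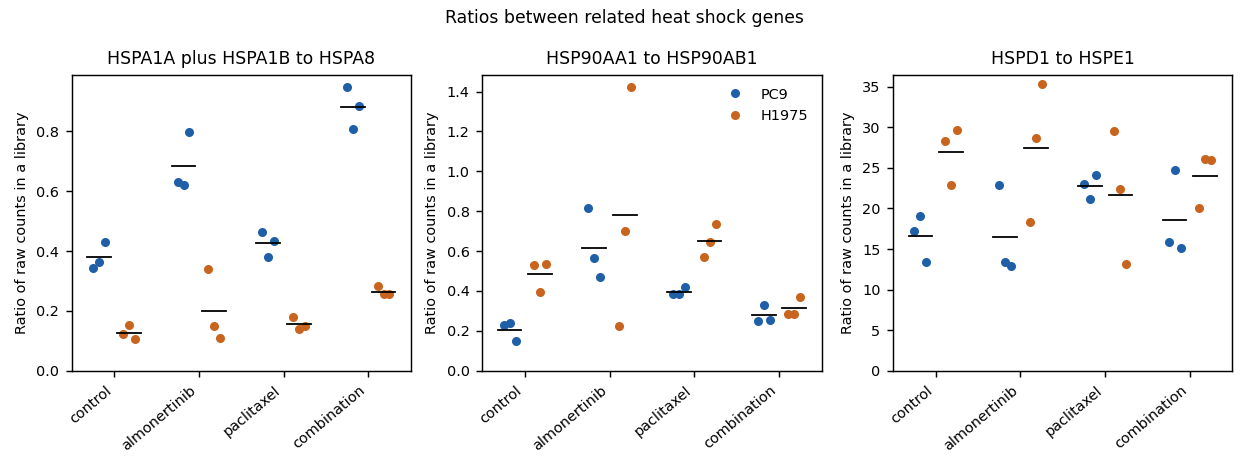
Ratios of raw counts within each library (linear axes from 0) for the inducible HSP70 pair to HSPA8, HSP90AA1 to HSP90AB1, and HSPD1 to HSPE1, in PC9 (blue) and H1975 (orange); points are libraries and bars means of 3. The first ratio is highest in the PC9 combination (0.808 to 0.948), and the second spreads widest in H1975 almonertinib libraries (0.222 to 1.42).

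Other genes of the chaperone network were read from 7 lists. In PC9 86 of their genes were tested: 16 rose and 31 fell under almonertinib, 18 rose and 35 fell under paclitaxel, and 7 rose and 42 fell in the combination. Of all genes 28.9%, 27% and 24.7% were higher and 27.7%, 28% and 26.1% lower in the same comparisons. These shares also stand beside the PC9 counts of each list below. Their median log2 fold change was -0.14, -0.14 and -0.33. The HSF regulators had 1 of 6 higher in each PC9 comparison and 2, 4 and 2 lower. HSF1 itself, the main activator of these promoters, fell by 0.46 on the log2 scale under paclitaxel (edgeR adjusted p = 0.000494). IER5, which promotes HSF1 activity, fell by 0.68 under almonertinib (adjusted p = 1.47e-05) and by 0.59 in the combination (adjusted p = 8.55e-05). HSBP1, which binds HSF1 and restrains it, fell by 0.31 (adjusted p = 0.0314) and 0.41 (adjusted p = 0.00819) in the same comparisons, and its relative HSBP1L1 by 0.60 under paclitaxel (adjusted p = 0.000991). HSF4 rose by 0.90 (adjusted p = 0.00178) and 0.70 (adjusted p = 0.0128) and HSF2 by 0.85 under paclitaxel (adjusted p = 0.00368), both at low levels (means of 4.24 and 3.72 CPM).

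The HSP90 co-chaperones had 19 genes tested, of which 3, 3 and 2 rose and 8, 7 and 10 fell under almonertinib, paclitaxel and the combination. FKBP4, an immunophilin of the HSP90 cycle, fell by 1.06, 0.87 and 1.12 on the log2 scale (edgeR adjusted p = 1.58e-07, 3.91e-06 and 1.57e-07). AHSA1, which stimulates the ATPase of HSP90, fell by 0.77, 0.72 and 0.76 (adjusted p = 2e-06, 9.79e-06 and 3.19e-06). RPAP3, of the R2TP complex, rose by 1.69, 1.54 and 1.17 (adjusted p = 2.55e-05, 0.000109 and 0.00104). FKBP8 rose under almonertinib (0.64, adjusted p = 0.000158) and in the combination (0.28, adjusted p = 0.0476), and FKBP5 under paclitaxel (1.21, adjusted p = 7.1e-05).

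Among J-domain and adaptor co-chaperones of HSP70, 6, 4 and 3 of 16 rose and 4, 7 and 6 fell. DNAJC21 rose in all 3 comparisons (0.84, 1.00 and 0.43; adjusted p = 0.000178, 6.43e-05 and 0.027), DNAJA1 under almonertinib (0.87, adjusted p = 9.25e-06), and DNAJB4 under paclitaxel and the combination (1.49 and 1.53; adjusted p = 0.000664 and 0.000505). DNAJB5 fell under almonertinib (-2.86, adjusted p = 2.2e-08) and paclitaxel (-1.55, adjusted p = 1.28e-05), TOMM34 under almonertinib (-0.93, adjusted p = 5.45e-07) and the combination (-0.78, adjusted p = 5.12e-06), DNAJB2 under paclitaxel (-0.80, adjusted p = 1.22e-05), and STIP1, which links HSP70 to HSP90, in the combination (-0.57, adjusted p = 8.18e-05). Of 15 other HSP70 genes and exchange factors, 1, 4 and 0 rose and 2, 4 and 3 fell. HSPA4, an HSP110 relative of HSPH1, rose under almonertinib and paclitaxel (0.52 and 0.55; adjusted p = 0.0155 and 0.0112), and HSPA13 under paclitaxel (0.84, adjusted p = 0.00372). HSPBP1 fell under paclitaxel and the combination (-0.53 and -0.46; adjusted p = 0.000434 and 0.0013), BAG6 under paclitaxel (-0.36, adjusted p = 0.00195) and HSPA12A under almonertinib (-0.73, adjusted p = 0.00148). HSPA6, the strictly inducible HSP70, was low (mean 0.713 CPM) and fell by 1.05 under almonertinib and in the combination (adjusted p = 0.0117 and 0.0132).

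Of 14 mitochondrial chaperones and proteases, 2, 4 and 1 rose and 8, 8 and 11 fell. CLPX, of the matrix protease ClpXP, rose in all 3 comparisons (0.86, 0.68 and 0.67; adjusted p = 0.000508, 0.00374 and 0.00434) and YME1L1 under both single drugs (0.76 and 0.74; adjusted p = 0.00032 and 0.000532). The disaggregase CLPB fell in all 3 (-0.88, -0.46 and -0.79; adjusted p = 5.33e-07, 0.000452 and 2.43e-06), DNAJA3 under almonertinib and the combination (-0.96 and -0.85; adjusted p = 3.03e-07 and 1.66e-06), and HSCB under paclitaxel (-0.99, adjusted p = 2.04e-06). In the cytosolic chaperonin TRiC and prefoldin, 2, 2 and 0 of 14 rose and 7, 5 and 10 fell. CCT7 fell in all 3 (-0.92, -0.56 and -0.90; adjusted p = 8.42e-07, 0.000193 and 1.59e-06), CCT3 under both single drugs (-0.76 and -0.47; adjusted p = 6.32e-06 and 0.000747) and CCT5 in the combination (-0.85, adjusted p = 1.03e-06). CCT8 rose under both single drugs (0.58 and 0.70; adjusted p = 0.0014 and 0.000377), as did PFDN4 under almonertinib (0.76, adjusted p = 4.09e-05) and VBP1 under paclitaxel (0.47, adjusted p = 0.0189). With the length and GC trend removed VBP1 was at -0.065 (adjusted p = 0.649).

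Only 3 other small heat shock proteins had enough counts in PC9. HSPB8, a partner of BAG3 in chaperone-assisted autophagy, fell in all 3 comparisons (-1.39, -1.57 and -0.55; edgeR adjusted p = 9.9e-08, 8.98e-08 and 0.00111), so that under almonertinib and the combination it was lower while HSPB1 was higher. HSPB9 rose under almonertinib (2.33, adjusted p = 0.000634) at a mean of 0.693 CPM. In H1975 0 of 83 tested list genes were called with edgeR in any of the 3 comparisons. Of all genes 1.36%, 0.437% and 1.75% were higher and 0.608%, 0.186% and 0.713% lower. Of the list genes 6, 2 and 14 had an unadjusted p under 0.05 and DESeq2 made 0, 0 and 1 calls. Without the pair of libraries that stood apart, 12, 0 and 13 calls were made, and with the length and GC trend removed 9, 0 and 16. In those fits 923, 234 and 1487 of all 12441 genes and 941, 412 and 1613 of all 12345 genes were called.

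**Figure D5:**
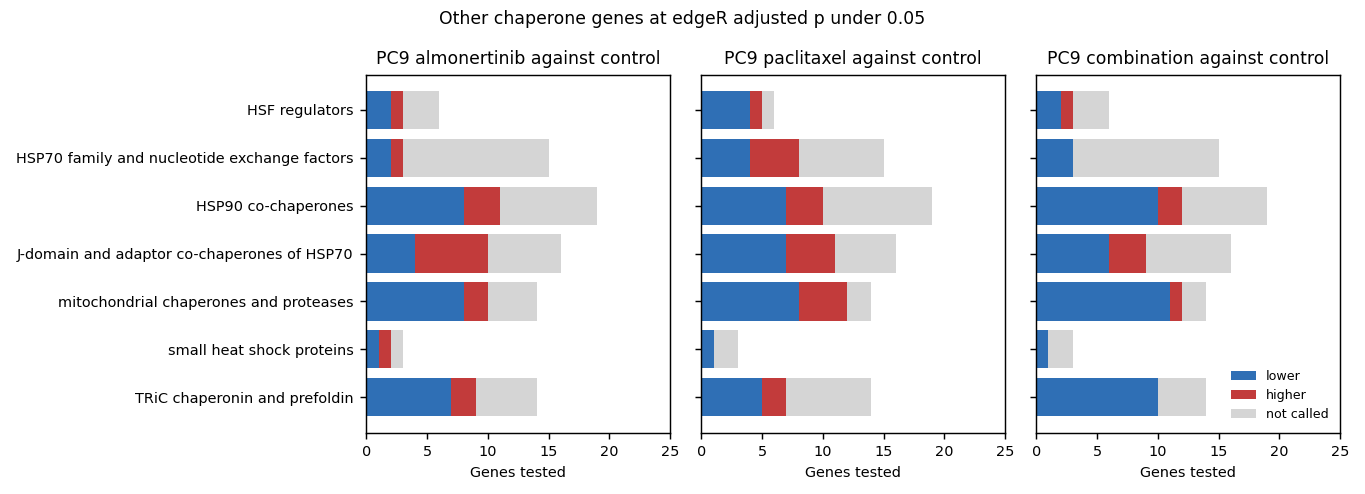
Number of genes of each chaperone list (7 lists, none of the 10 members included) that were lower (blue), higher (red) or not called (grey) at an edgeR adjusted p under 0.05 in the 3 PC9 comparisons with the control; bars start at 0 and end at the number of genes tested. In the combination 11 of 14 mitochondrial genes and 10 of 14 TRiC and prefoldin genes are lower, beside 26.1% of all genes tested.

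The genes most like a member were sought among 9644 protein-coding genes with a mean of at least 5 CPM, as the Pearson correlation over the 24 libraries of log2 CPM after subtracting the control mean of the same line. The libraries share groups, depth and the length trend, so these are descriptions with no test. For HSPA8 they were SRSF3 (0.972), KPNA2 (0.968), HUS1 (0.967), CCNB1 (0.965) and NEFH (0.94). For DNAJB1 they were SLC25A44 (0.941), SRRT (0.939), PLK1 (0.938), CDC20 (0.935) and SF1 (0.924). For HSPH1 they included CPNE3 (0.927), HNRNPH1 (0.909), TDG (0.899) and DDX52 (0.886).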

How the data were processed

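RNA of 24 libraries from PC9 and H1975 cells was sequenced after TRIzol extraction, per the labels' protocols. The authors deposited 1 table of raw read counts per gene, which held whole numbers and no normalisation. Per the submitters' processing notes, HISAT2 2.2.1, HTSeq and GRCh38 were used; the annotation, strand setting and treatment of ambiguous or multiply aligned reads are not given in the sources used here. Every column of samples was used. Symbols, positions and exon lengths came from GENCODE v29 and NCBI tables (GRCh38), and promoter windows from RefSeq (GRCh38.p14).

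The 12 libraries of a line formed 1 model in edgeR 4.0.16 (run under R 4.3.3; filterByExpr, TMM factors, robust quasi-likelihood test, two-sided), with Benjamini-Hochberg adjustment over all genes tested in each comparison. Responses of the lines were compared in 1 fit of all 24 libraries. An adjusted p under 0.05 was a call. The scripts were tested on simulated data. The lowest count of a member was 121 reads (HSPE1), where counting error adds to the spread between libraries; the other members had at least 336 reads. The 10 members, the 7 gene lists and the tests were chosen with earlier results of these data known. The text names every member, the called genes of a list with the smallest p against control (at most 2 per direction and comparison), and the 5 genes most like each of HSPH1, DNAJB1 and HSPA8, of which 1 is not reported here.

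The labels give shared repeat numbers but no shared culture or day. Deviations of same-numbered libraries correlated above 0.1 in every pair only for PC9 almonertinib and control (0.119, 0.106 and 0.394) and H1975 combination and control (0.11, 0.169 and 0.345); there a replicate block changed no call among the members. Alternatives were RLE factors, no filter, a stricter filter (a mean of 5 CPM, with 1 CPM reached by 3 libraries), DESeq2 1.42.0, the replicate block, removal of each library's trend with exon length and GC content (splines with 5 degrees of freedom), all 24 libraries in 1 fit, only the groups compared, HSPA1A and HSPA1B summed, and each library left out.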

Additional observations from a re-analysis of the deposited data

Results flagged for a closer look

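The response to treatment differed between the lines, by the test of the difference itself (PC9 minus H1975, edgeR, log2 scale), for 8 of the 30 pairs of member and treatment, all lower in PC9. Of all genes 11%, 7.19% and 10.9% were lower in PC9 by the same test for almonertinib, paclitaxel and the combination, so that 1 of 10 members for almonertinib lies near the background. For almonertinib HSPA8 was at -0.72. For paclitaxel HSPA1A was at -1.23, HSPA1B at -1.39, HSPA8 at -1.17 and DNAJB1 at -0.62. For the combination HSPA1A was at -0.73, HSPA1B at -1.13 and HSPA8 at -1.05. The calls for HSPA8 (almonertinib), DNAJB1 (paclitaxel) and HSPA1A (combination) were each lost when single libraries were left out (adjusted p of 0.0627, up to 0.0647 and up to 0.115). The drug doses differed between the lines, so that line and dose cannot be told apart.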

How the results depend on the processing

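Counts of members called, beside the main counts of 8 (PC9 paclitaxel against control), 5 (PC9 combination against control), 4 (PC9 combination against almonertinib), 8 (PC9 interaction), 1 (H1975 combination against control), 1 and 3 (difference of the lines for almonertinib and the combination) and 0 in the other H1975 comparisons named here, moved as follows. For H1975 combination against control the count was 2 with no filter, with the stricter filter and with DESeq2, 5 with the length and GC trend removed, 3 in the fit of all 24 libraries and 6 with only the groups compared. Of all genes 311 of 15527, 270 of 9291 and 699 of 15527 were called with no filter, the stricter filter and DESeq2. With the trend removed, all 24 libraries and only the groups compared, 1613 of 12345, 1242 of 13380 and 1940 of 12068 were called. The main fit called 304 of 12345. For H1975 combination against paclitaxel the count of members was 1 with DESeq2, 1 with the trend removed, 2 with all 24 libraries and 4 with only the groups compared. Of all genes 488 of 15527, 219 of 12345, 758 of 13380 and 813 of 12086 were called there, against 0 in the main fit. In the fit of all 24 libraries PC9 paclitaxel had 5 members called, PC9 combination 3, PC9 combination against almonertinib 2 and the PC9 interaction 5. Of all 13380 genes 5049, 4821, 914 and 4006 were called there, against 7032, 6492, 2567 and 5819 of 12796 in the main fit. PC9 paclitaxel also had 6 members called with no filter and with the trend removed, and 7 with the stricter filter and with only the groups compared. Of all genes 6834 of 15963, 6633 of 12796, 5502 of 9434 and 7723 of 12475 were called in the same order. PC9 combination against almonertinib had 2 members called with only the groups compared, beside 1301 of all 12478 genes. The combination difference of the lines had 5 members called with DESeq2, and the almonertinib difference 2 with the trend removed. Of all genes 2747 of 16607 and 3762 of 13380 were called there, against 2396 and 2221 of 13380 in the main fit. Without the library of each line that stood apart, chosen after seeing the data, the counts were 1 (H1975 almonertinib), 5 (H1975 combination), 5 (H1975 combination against almonertinib), 4 (against paclitaxel), 1 (H1975 interaction), 2 (almonertinib difference) and 6 (combination difference). Of all 12441 genes 923, 1487, 1111, 621 and 629 were called in these H1975 comparisons. For the differences of the lines 2690 and 4245 of 13474 genes were called. The cause was not tested.

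Leaving out in turn each library of the groups compared, and none of the other groups in the same fit, gave 0 to 1 for H1975 almonertinib, combination, combination against paclitaxel and interaction, 0 to 5 for H1975 combination against almonertinib (5 without almonertinib library 1), 0 to 3 for the almonertinib difference (0 without PC9 control library 1, 3 without H1975 almonertinib library 3) and 2 to 5 for PC9 combination against almonertinib. For PC9 paclitaxel against control it gave 6 to 7, always below the main count of 8. With the length and GC trend removed, 3 values that were called in either fit changed sign: HSPH1 in the PC9 interaction (0.54) and in the paclitaxel difference of the lines (-0.49), and VBP1 under PC9 paclitaxel (-0.065). Over all alternatives 84 further values changed sign, 13 of them with that trend removed, and none of these was called in either fit; HSPH1 under PC9 almonertinib went from 0.29 to -0.18. With the replicate block, HSPD1 in the PC9 combination was called (-0.33, edgeR adjusted p = 0.0272), giving 6 members in place of 5. Of all 12796 genes 7098 were called there, against 6492 in the main fit. Deviations of same-numbered combination and control libraries correlated at -0.072, 0.174 and 0.203, and whether they were paired is not known. No other call among the members changed with the block. With HSPA1A and HSPA1B summed, their H1975 combination change was 0.91 (adjusted p = 0.0408). HSPE1 had the fewest reads of the members (121 at the lowest), and HSP90AA1 had the largest standard error in every comparison.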
